A study of Mus musculus with 12 samples.

Results

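The genes described here are 45 interferon response genes, taken from a list of type I and type II interferon targets that also holds Ido1, out of 55376 genes in the RNA-Seq count table of mouse proximal colon. The study removed EPR, a long non-coding RNA of epithelial cells, and compared 6 EPR fl/fl with 6 EPR cKO mice aged 12 weeks. Both groups carry homozygous floxed EPR alleles, and EPR cKO mice also carry the CDX2P-NLS Cre transgene, in which promoter sequence of the human CDX2 gene drives Cre recombinase. The controls lacked that transgene, so carrying Cre and losing EPR cannot be told apart in these groups, and the transgene is also active in the distal ileum and cecum. Each library came from the whole wall of the proximal part of the colon, with epithelium, immune cells and muscle in it. In such tissue, fewer cells of a type and less RNA per cell cannot be told apart.

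Interferons are cytokines, of which cells release types I and III on sensing viral or other foreign nucleic acid. In the gut the microbiota sustains a low tonic response to interferons. Type I and type III interferons act largely through the interferon-stimulated response element (ISRE), which a complex holding STAT2 and IRF9 binds, while type II interferon (IFN-γ) acts largely through gamma-activated sites (GAS). Their targets include sensors of foreign RNA, proteins that block viral replication, GTPases that attack vacuoles holding microbes, chemokines that draw T cells, and Ido1, the enzyme that starts the breakdown of tryptophan to kynurenine.

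Stretches of promoter are shown because these elements are where the factors of the pathway are known to bind. The RefSeq promoter table (GRCm38.p6, 250 bases before to 50 bases after each start) held 31 of the 45 genes. The letters GAAANNGAAA, searched on both strands as an ISRE core, stood in 19 of these 31 (61.3%) and in 3.99% of the 27025 genes with a promoter in the table. The letters TTCNNNGAA, searched likewise as a GAS core, stood in 8 of 31 (25.8%) and in 9.55% of all genes. In the lines below the capitals mark the matched letters, the strand is that of the printed letters, matches may overlap one another, and a match describes the letters and not a bound site.

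Isg15, an ISRE match at chr4:156200871-156200900, minus strand: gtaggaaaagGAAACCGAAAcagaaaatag

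Ifit1, an ISRE match at chr19:34640794-34640823, minus strand: tcagcagtgaGAAACTGAAActgagactgg

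Ifit3, an ISRE match at chr19:34583363-34583392, minus strand: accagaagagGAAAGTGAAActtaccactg

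Ifit3b, an ISRE match at chr19:34607759-34607788, minus strand: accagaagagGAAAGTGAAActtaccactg

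Oas1a, an ISRE match at chr5:120907520-120907549, minus strand: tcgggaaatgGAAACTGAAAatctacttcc

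Oas3, an ISRE match at chr5:120777715-120777744, minus strand: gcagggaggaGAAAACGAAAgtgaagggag

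Ifih1, an ISRE match at chr2:62646206-62646233, minus strand: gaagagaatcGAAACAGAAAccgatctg

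Irgm1, an ISRE match at chr11:48871425-48871454, minus strand: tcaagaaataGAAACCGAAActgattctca

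Cxcl10, an ISRE match at chr5:92349083-92349112, minus strand: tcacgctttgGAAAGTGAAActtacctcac

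Igtp, a GAS match at chr11:58199501-58199529, plus strand: aactagccatTTCTAGGAActgaaactga

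Igtp, an ISRE match at chr11:58199512-58199541, plus strand: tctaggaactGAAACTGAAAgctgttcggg

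Irf1, a GAS match at chr11:53769914-53769942, plus strand: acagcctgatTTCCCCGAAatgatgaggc

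The printed 30-base stretches of Ifit3 and Ifit3b are the same letter for letter, at 156 and 188 bases before the start, and their transcripts also share sequence. Both motifs stood in the windows of 4 genes (Oas1a, Bst2, Gbp7 and Igtp), and neither stood in those of 8 genes (Irf7, Irf9, Ifi44, Oasl2, Xaf1, Dtx3l, Ifi47 and Cxcl9). Many of the 45 genes lie in clusters of their families. Ifit2, Ifit3, Ifit3b and Ifit1 lie on chromosome 19 between 34550710 and 34650009 (GRCm38), and Oas2, Oas3 and Oas1a on chromosome 5 between 120730333 and 120907521. Gbp7, Gbp3 and Gbp2 lie on chromosome 3 between 142530342 and 142638008, and Gbp4 and Gbp6 on chromosome 5 between 105115767 and 105293696. Cxcl9 and Cxcl10 are neighbours on chromosome 5 (92321347 to 92348889), as are Dtx3l and Parp9 on chromosome 16 (35926511 to 35972605). Genes named without a promoter in the table are Ido1, Usp18, Dhx58, Zbp1, Oas2, Mx1, Mx2, Rtp4, Ly6e, Parp9, Parp14, Gbp4, Gbp6 and Iigp1.

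Library totals ranged from 13093904 to 33211041 counts. EPR, read in the table's Smim31 row, had 297 to 1474 counts in the EPR fl/fl libraries and 0 to 10 in the EPR cKO libraries (log2 fold change −8.09 ± 0.47 SE, edgeR adjusted p = 1.6153e-06). A composition score was taken as the mean log2 level of 12 epithelial markers minus that of 10 smooth muscle markers. It ran from 0.86 to 1.55 in EPR fl/fl and from −0.11 in EPR cKO 1 to 3.37 in EPR cKO 5. Every EPR cKO library except EPR cKO 1 was at 1.88 or more, above all controls. All 45 genes passed the filter of at least 1 CPM (counts scaled to library size) in at least 4 libraries, among 15952 genes that did. Levels below are TMM-scaled CPM, fold changes are EPR cKO over EPR fl/fl on the log2 scale, and p-values come from edgeR's quasi-likelihood test adjusted over all 15952 genes.

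None of the 45 genes passed an adjusted p of 0.05 in either direction. Ido1 had the smallest p of the 45, with a mean in EPR cKO that was 30.5% of that in EPR fl/fl and an adjusted p of 0.107. Interferon response genes stood out instead by their spread between mice of one genotype: EPR fl/fl 6 was the highest of the 12 libraries for 44 of the 45. Across all genes tested, the share called lower was 1.57% and the share called higher 0.884%, against 0 of 45 in both directions by this test. At an unadjusted p of 0.05, 2 of 45 were lower (Ido1 and Gbp4) and 0 higher, beside 7.12% lower and 11.1% higher of all genes. DESeq2 called 1 of the 45 lower (Ido1) and 0 higher at its adjusted p, beside 2.97% lower and 2.77% higher of all genes in the same fit. limma-voom called 0 of the 45, beside 2.05% lower and 1.1% higher of all genes. No gene of the 45 had its groups apart without overlap, which held in the lower direction for 1.47% and in the higher direction for 0.997% of all genes.

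**Figure D1:**
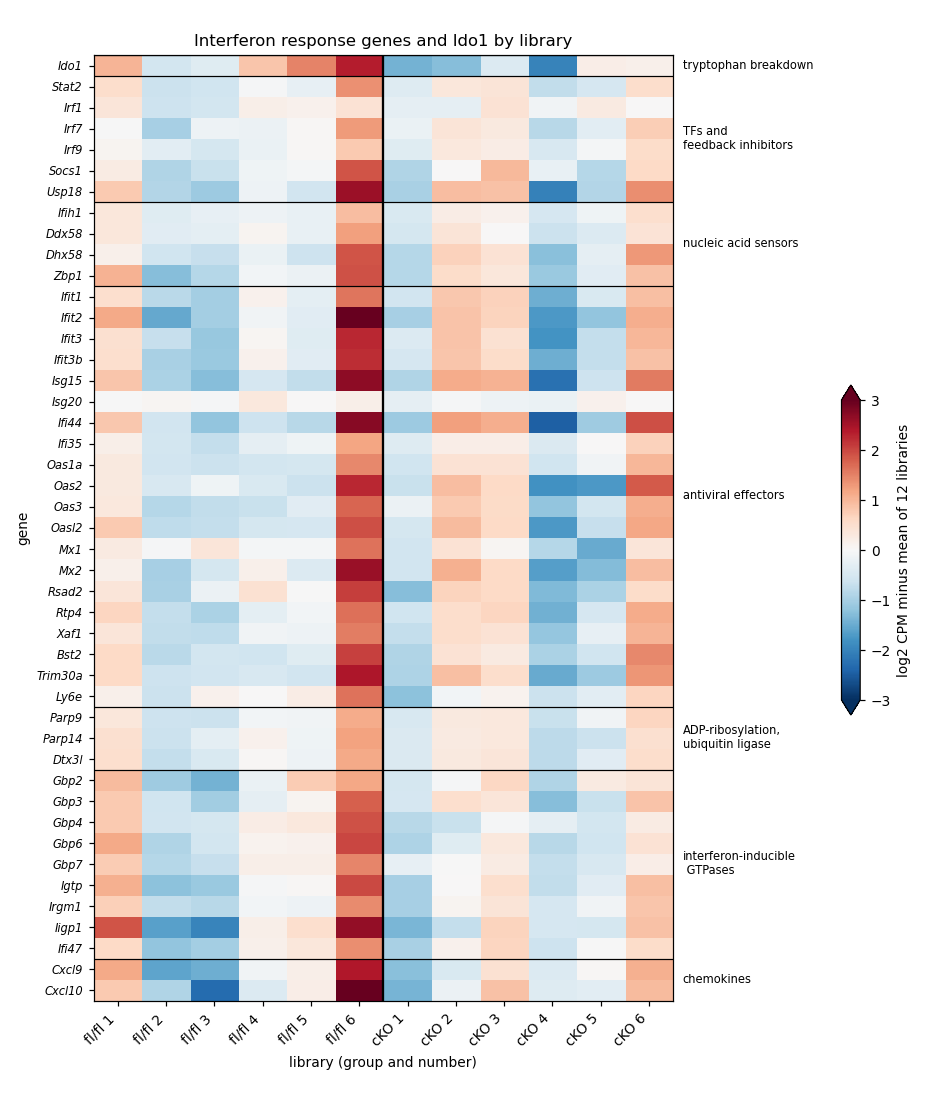
Log2 CPM of each of the 45 genes minus its mean over the 12 libraries, as colour, with libraries in columns (6 EPR fl/fl on the left, 6 EPR cKO on the right) and genes in rows grouped by role. EPR fl/fl 6 is the reddest column in 44 rows, EPR cKO 6, 2 and 3 and EPR fl/fl 1 are also red in most rows, and EPR cKO 4 holds the lowest value in 25 rows.

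Ido1 (chr8:24584136-24597009, minus strand, GRCm38) was read at 30.0, 10.0, 11.4, 26.4, 41.9 and 75.5 CPM in EPR fl/fl 1 to 6. In EPR cKO 1 to 6 it was read at 5.49, 6.09, 11.1, 3.61, 16.9 and 16.3 CPM. Its 4 highest values were all EPR fl/fl, and the ranges overlapped because EPR fl/fl 2 and 3 lay below EPR cKO 5 and 6. The controls averaged 32.5 ± 24.2 CPM, the EPR cKO libraries averaged 9.91 ± 5.74 CPM (SD, n = 6 each), and the log2 fold change of −1.71 ± 0.52 (SE) had an adjusted p of 0.107. The adjusted p was 0.0385 with DESeq2 and 0.0483 in edgeR without EPR cKO 1, a fit that called 14.4% of all genes lower and 1 of the 45. Without EPR fl/fl 6 the log2 fold change was −1.25 with an adjusted p of 0.195. With the composition score as a covariate in edgeR it was −2.19 with an adjusted p of 0.140. Over all alternatives run, its adjusted p lay between 0.0385 and 0.207. The fold change kept its sign when each of the 12 libraries was left out in turn, between −1.93 and −1.25.

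**Figure D2:**
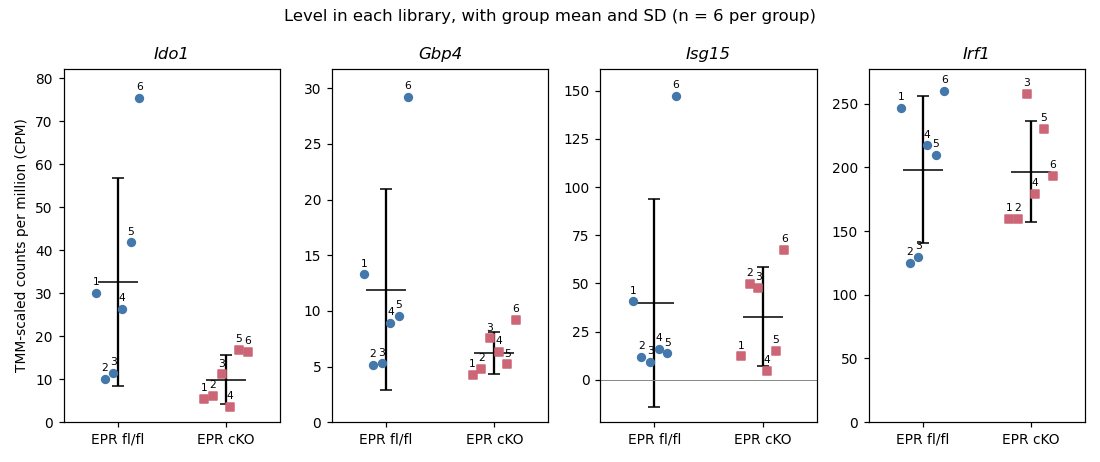
CPM of Ido1, Gbp4, Isg15 and Irf1 in each library (points, numbered by library; blue EPR fl/fl, red EPR cKO), with group mean and SD as bars and a separate linear axis for each gene. Ido1 lies between 10.0 and 75.5 CPM in the controls and between 3.61 and 16.9 in EPR cKO. Isg15 reaches 147 CPM in EPR fl/fl 6. Irf1 lies between 125 and 260 CPM in the controls and between 159 and 258 in EPR cKO.

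Ratios within a library use no scaling factor, so Ido1 was also set against Epcam, an epithelial gene, and Ptprc, the pan-leukocyte CD45 gene. The log2 ratio of Ido1 to Epcam averaged −5.63 ± 1.01 over the controls and −7.42 ± 0.74 over the EPR cKO libraries (SD, n = 6 each). The difference of −1.78 had a two-sided exact permutation p of 0.00866 over 924 assignments (0.0173 adjusted over the 2 ratios), where the smallest possible p is 0.00216. EPR cKO ratios ran from −8.49 to −6.59 and EPR fl/fl ratios from −6.94 to −4.17, so that only EPR fl/fl 2 lay among the highest EPR cKO values. The log2 ratio of Ido1 to Ptprc averaged −0.93 ± 0.75 over the controls and −2.30 ± 0.88 over the EPR cKO libraries, a difference of −1.37 (n = 6 each, exact permutation p = 0.0173, also 0.0173 adjusted). Both differences kept a p below 0.05 with each library left out in turn, from 0.00216 to 0.0173 for Epcam and from 0.00866 to 0.0368 for Ptprc. With EPR fl/fl 6 and EPR cKO 1 both left out, the p was 0.0317 for Epcam and 0.0635 for Ptprc. Ido1 was the gene of this set with the smallest p in the test above, and the ratios share its counts, so they are not separate evidence. The other 44 genes had a median log2 fold change of −0.27.

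Of the 45 genes, 41 had a log2 fold change below 0, with a median of −0.28, while over all 15952 genes 47.2% were below 0 and the median was 0.02. That direction rested on EPR fl/fl 6. Without it, 11 of 45 lay below 0 and 34 above, with a median of 0.25 and no adjusted p under 0.195. With EPR cKO 1 left out as well, 8 lay below 0 and 37 above, with a median of 0.32. Isg15 moved from −0.28 to 0.85 without EPR fl/fl 6 and Ifi44 from −0.18 to 0.97, while Gbp4 stayed below 0 (−0.93 and −0.43).

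**Figure D3:**
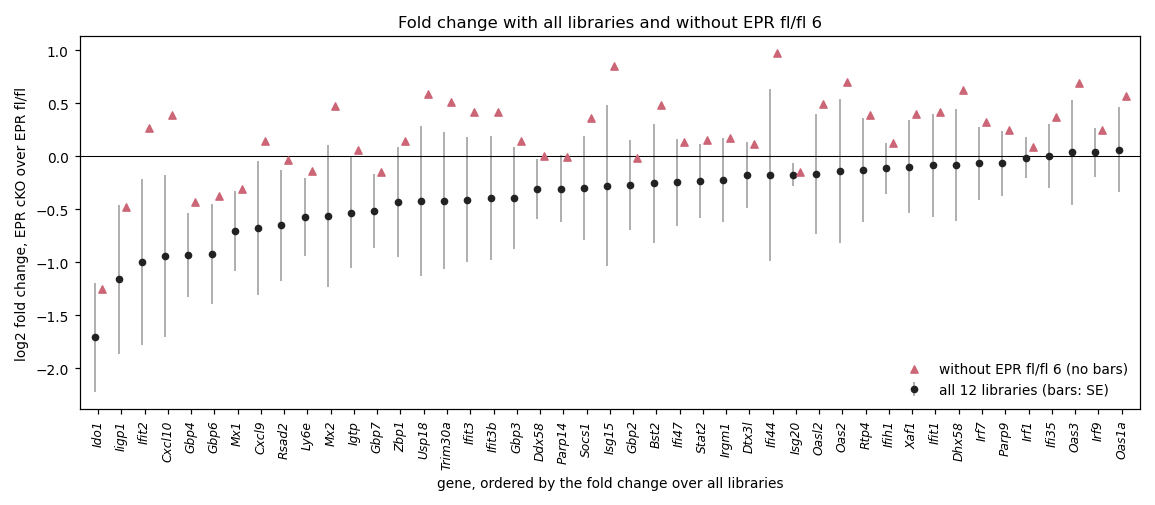
Log2 fold change of each of the 45 genes, EPR cKO over EPR fl/fl, with all 12 libraries (black points, bars are SE) and without EPR fl/fl 6 (red triangles, no bars). Black points lie below 0 for 41 genes, and triangles lie above 0 for 34, while Ido1 keeps the lowest value in both (−1.71 and −1.25).

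In EPR fl/fl 6 the level was 4.09 times the median of the other 11 libraries for the median gene, from 1.13 times for Isg20 to 11.2 times for Ifit2. Over all genes tested, EPR fl/fl 6 held the highest value for 6.02%. Among the other 11 libraries, EPR cKO 6 was highest for 28 of the 45 genes and EPR fl/fl 1 for 9. EPR cKO 4 was lowest of the 12 for 25 genes, EPR fl/fl 2 for 8, EPR fl/fl 3 for 6, EPR cKO 1 for 5 and EPR cKO 5 for 1. High and low libraries were thus found in both genotypes. For 30 of the 45 genes, EPR fl/fl 6, EPR cKO 6, EPR cKO 2 and EPR cKO 3 were all among the top 5 libraries.

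The highest library was 8.12 times the lowest for the median gene, from 1.49 times for Isg20 to 46.8 times for Cxcl10. The SD of log2 CPM within a group had a median of 0.92 over the 45 genes and of 0.25 over all genes tested. For 33 of the 45 it lay above the 90th percentile of all genes, and for 44 of 45 above the 90th percentile of the genes whose mean level was within 0.5 log2 units. The exception, Isg20, an exonuclease that degrades viral RNA, had an SD of 0.14. In EPR fl/fl alone the median SD of the 45 was 0.99 against 0.22 over all genes. Without library 6 it was 0.57 against 0.21, and in EPR cKO it was 0.80 against 0.25. By these SDs, 41 of the 45 lay above the 90th percentile of all genes in EPR fl/fl. That number was 25 without library 6 and 20 in EPR cKO. The SD was 0.94 in the median of the 19 genes with an ISRE match (0.45 to 1.48) and 0.75 in the 12 without one (0.14 to 1.598), so the sets overlapped widely.

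**Figure D4:**
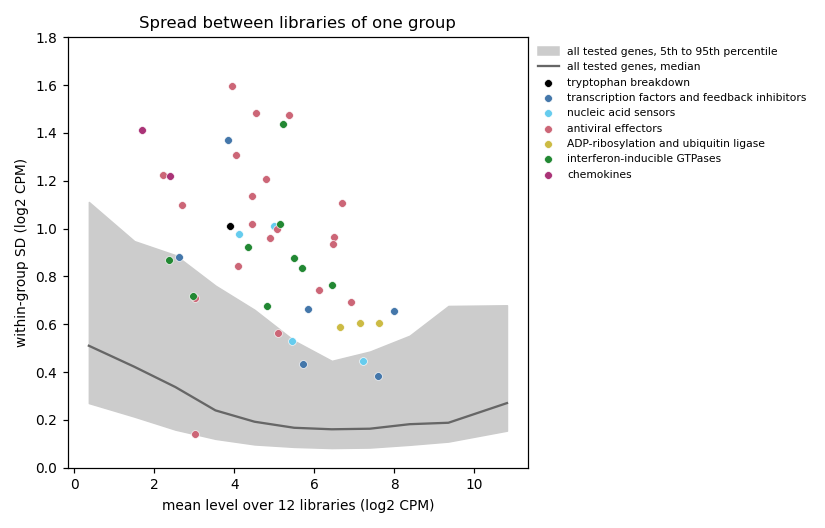
SD of log2 CPM within a group (vertical axis) against the mean log2 CPM over 12 libraries (horizontal axis) for the 45 genes, coloured by role, with the 5th to 95th percentile (grey band) and median (line) of all 15952 genes in bins of level. Most of the 45 lie above the band, with a median SD of 0.92, and Isg20 lies under the grey line at 0.14.

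The transcription factors and feedback inhibitors (Stat2, Irf1, Irf7, Irf9, Socs1 and Usp18) had log2 fold changes from −0.42 to 0.04 and adjusted p-values of 0.736 or more. Irf7, which amplifies the type I response, had the highest level per exon length of this role, with 119 CPM per kilobase in the controls and 114 in EPR cKO. It ran from 127 to 621 CPM in the controls (median 241) and from 144 to 424 in EPR cKO (median 266). Library EPR fl/fl 6 stood alone at the top, the other 5 controls lay within the EPR cKO range or just under it, and the log2 fold change was −0.07 ± 0.34 (adjusted p = 0.930). Irf9, the DNA-binding subunit of the type I complex, ran from 35.8 to 89.9 CPM in the controls (median 49.3) and from 37.0 to 75.8 in EPR cKO (median 55.5). Its groups lay over one another, and its log2 fold change of 0.04 ± 0.23 (adjusted p = 0.943) was the second of the 4 above 0. Irf1 is induced most strongly by IFN-γ, and its GAS match is shown above. It had the smallest ratio of highest to lowest library of these 6 genes, 2.08 (125 to 260 CPM over all 12 libraries). Usp18, which removes ISG15 from proteins and dampens the type I receptor, had the largest ratio, 24.9. It was at 3.43 CPM in EPR cKO 4 and 85.5 in EPR fl/fl 6.

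The 4 sensors of foreign nucleic acid (Ifih1, Ddx58, Dhx58 and Zbp1) had log2 fold changes from −0.43 to −0.08 (adjusted p of 0.577 or more), and all 4 were above 0 without EPR fl/fl 6. Ifih1, which encodes the RNA sensor MDA5 and has its ISRE match just after the start, was the highest of them per exon length, at 29.4 CPM per kilobase in the controls and 27.1 in EPR cKO. It ran from 114 to 281 CPM in the controls (median 129) and from 105 to 209 in EPR cKO (median 149), and the log2 fold change was −0.11 ± 0.24 (adjusted p = 0.810). Its median was higher in EPR cKO while its mean was higher in EPR fl/fl, where library 6 lay well above the rest.

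The 20 antiviral effectors had a median log2 fold change of −0.22, from −0.99 for Ifit2 to 0.06 for Oas1a, with adjusted p-values of 0.344 or more. Without EPR fl/fl 6 the median was 0.42, and 16 of the 20 lay above 0. Library EPR cKO 6 was second highest for 15 of the 20 and EPR cKO 2 for 3. Isg15, a ubiquitin-like protein that is conjugated to other proteins, was read at 40.8, 12.0, 9.51, 16.1, 13.8 and 147 CPM in EPR fl/fl 1 to 6 and at 12.2, 49.8, 47.8, 4.81, 15.0 and 67.5 in EPR cKO 1 to 6. Libraries above 40 CPM were thus found in both genotypes, as were libraries under 13. Ifi44 ran from 2.72 CPM in EPR cKO 4 to 101 in EPR fl/fl 6 and had the largest within-group SD of the 45, 1.598.

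Ly6e, a membrane protein that limits viral entry, had the highest level of the effectors per exon length, at 65.9 CPM per kilobase in the controls and 44.4 in EPR cKO. It ran from 77.0 to 370 CPM in the controls (median 133) and from 51.4 to 188 in EPR cKO (median 105), with a log2 fold change of −0.57 ± 0.37 (adjusted p = 0.422). Apart from library 6, the controls lay inside the EPR cKO range. Oas1a and Oas3, which make the oligoadenylate signal that activates RNase L, were 2 of the 4 genes above 0. Oas1a ran from 44.4 to 190 CPM in the controls (median 47.6) and from 45.8 to 138 in EPR cKO (median 79.3), with a log2 fold change of 0.06 ± 0.40 (adjusted p = 0.943). Oas3 ran from 48.9 to 298 CPM in the controls (median 62.5) and from 39.2 to 189 in EPR cKO (median 105), with a log2 fold change of 0.04 ± 0.50 (adjusted p = 0.974). For both genes 4 of the 6 controls sat near the bottom of the range, and the other two were libraries 1 and 6. Some of these counts could be shared between near-copies: 57.6% of the 50-base stretches of Oas1a transcripts also occur in Oas1g, 51.2% of those of Ifit3 in Ifit3b, and 0% of those of Ido1 in any other gene.

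The ADP-ribosyltransferases Parp9 and Parp14 and the ubiquitin ligase Dtx3l, partners in DNA damage and interferon signalling, had log2 fold changes from −0.31 to −0.07. Parp14 was highest of the 3 per exon length in EPR fl/fl (31.8 CPM per kilobase) and Parp9 in EPR cKO (29.3). Parp9 ran from 63.8 to 214 CPM in the controls (median 92.9) and from 61.8 to 155 in EPR cKO (median 107), with a log2 fold change of −0.07 ± 0.31 (adjusted p = 0.922). The controls other than EPR fl/fl 6 lay inside the EPR cKO range. Parp9 and Dtx3l lie head to head, and 7.71% of the stretches of Parp9 occur antisense in Dtx3l.

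All 9 interferon-inducible GTPases lay below 0, with a median log2 fold change of −0.52 and adjusted p-values from 0.234 to 0.776. Without EPR fl/fl 6, 5 of the 9 lay below 0 and the median was −0.02. In this role EPR fl/fl 1 was second highest for 6 of 9, where EPR cKO 6 held that place for 15 of the 20 effectors. Gbp4, a guanylate-binding protein that coats microbial vacuoles, ran from 5.15 to 29.2 CPM in the controls (median 9.25) and from 4.28 to 9.19 in EPR cKO (median 5.76). Libraries EPR fl/fl 1, 5 and 6 lay above every EPR cKO library and EPR fl/fl 2, 3 and 4 within their range, and the log2 fold change was −0.93 ± 0.39 (unadjusted p = 0.0341, adjusted p = 0.234). Gbp6 of the same family ran from 2.69 to 20.8 CPM in the controls (median 5.51) and from 2.63 to 6.90 in EPR cKO (median 3.62), with a log2 fold change of −0.92 ± 0.47 (adjusted p = 0.321). Only libraries 1 and 6 of the controls lay above the EPR cKO range, and 70.7% of the stretches of Gbp6 occur in other genes, chiefly Gm43302. Irgm1, a regulator of the IRG GTPases and of autophagy, was the highest of the role per exon length (46.0 CPM per kilobase in the controls and 39.4 in EPR cKO). It ran from 48.4 to 231 CPM in the controls (median 80.4) and from 43.4 to 154 in EPR cKO (median 86.3), with a log2 fold change of −0.22 ± 0.39 (adjusted p = 0.776).

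Cxcl9 and Cxcl10, which attract T cells through CXCR3, had log2 fold changes of −0.68 ± 0.63 and −0.94 ± 0.76 (adjusted p = 0.584 and 0.522). Cxcl10 ran from 0.569 to 26.6 CPM in the controls (median 2.99) and from 1.15 to 6.16 in EPR cKO (median 2.66). Apart from EPR fl/fl 6, no library of either genotype was above 6.16 CPM, and without EPR fl/fl 6 the log2 fold change was 0.39.

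None of the 19 interferon ligand genes passed the level filter, and 13 of them had no count in any library, which allows up to 3 counts per library. The 6 with any count were Ifnb1, Ifna2, Ifnk, Ifng, Ifnl2 and Ifnl3. Ifnl2, which encodes a type III interferon, had 29 counts in EPR fl/fl 6, 1 each in EPR cKO 2, 3 and 6, and 0 elsewhere. Ifnl3, its near-copy, had 23 counts in EPR fl/fl 6 and 0 to 3 in each other library. The library with the highest interferon targets was thus also the one with most of the type III ligand counts, of which 31.7% of the Ifnl2 stretches and 38.8% of the Ifnl3 stretches are common to the pair. Ifng had 16 counts in EPR fl/fl 6 and 0 to 9 in the others, and Ifnb1 had 1 count in EPR fl/fl 2 and 1 in EPR fl/fl 6. Ifnk had 0 to 4 counts and Ifna2 had 1 count in EPR cKO 6 only.

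**Figure D5:**
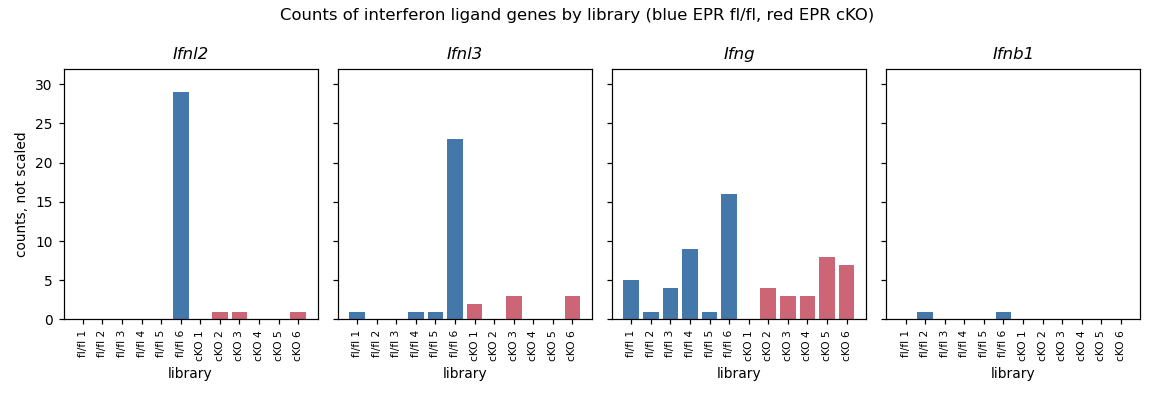
Unscaled counts (vertical axis, from 0) of Ifnl2, Ifnl3, Ifng and Ifnb1 in each library (blue bars EPR fl/fl, red bars EPR cKO). EPR fl/fl 6 has 29, 23, 16 and 1 counts, and no other library exceeds 1, 3, 9 and 1.

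Of 9 receptor and JAK kinase genes, 1 was lower at an adjusted p under 0.05 and none higher. Of all genes tested, 1.57% were called lower and 0.884% higher by the same test. The sensing, other target and kynurenine lists described below held no called gene. Ifnar2, the type I receptor chain that binds STAT2, ran from 7.97 to 11.0 CPM in the controls, with a mean of 9.59 ± 1.20, and from 4.29 to 8.56 CPM in EPR cKO, with a mean of 6.04 ± 1.41 (SD, n = 6 each). All EPR cKO libraries except EPR cKO 1 lay below every control, and the log2 fold change was −0.67 ± 0.16 (adjusted p = 0.0413). With 1 library left out in turn the log2 fold change stayed between −0.81 and −0.58, and the call was kept in 2 of the 12 fits (without EPR fl/fl 2, adjusted p = 0.0447, and without EPR cKO 1, 0.00267). The adjusted p was 0.00308 with DESeq2, 0.0271 with limma-voom, 0.0035 with quality weights and 0.0049 with EPR fl/fl 6 and EPR cKO 1 both left out. With the composition score as a covariate the log2 fold change was −0.43 (adjusted p = 0.121). Of the 50-base stretches of Ifnar2, 7.89% also occur in Gm21970. Ifnar1, the other chain, had 50.3 ± 3.26 CPM in the controls and 51.3 ± 3.47 in EPR cKO (log2 fold change 0.03 ± 0.06, adjusted p = 0.832). The IFN-γ receptor chains Ifngr1 and Ifngr2 had log2 fold changes of 0.25 ± 0.08 and 0.19 ± 0.07 (adjusted p = 0.139 and 0.166), and the type III chain Ifnlr1 0.30 ± 0.13 (0.245). Il10rb, which pairs with Ifnlr1, was at −0.02 ± 0.09, and the kinases Jak1, Jak2 and Tyk2 were at −0.15, 0.04 and 0.21, the last with an adjusted p of 0.0889.

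None of 13 upstream sensing genes (such as Mavs, Tlr3 and Tlr7) and none of 36 tested genes among 38 other interferon targets passed the adjusted threshold. Of those 36 targets, 26 lay below 0, with a median log2 fold change of −0.14, and EPR fl/fl 6 was highest for 31 of the 38. Of 12 genes of the kynurenine path, 6 passed the level filter and none was called. Kmo, which hydroxylates kynurenine, had 1.72 ± 0.49 CPM in the controls and 1.02 ± 0.23 in EPR cKO (log2 fold change −0.75 ± 0.23, adjusted p = 0.116). Its EPR cKO libraries (at most 1.27 CPM) all lay just below every control (at least 1.30), from 17 to 48 counts per library. The same held for 1.47% of all genes tested. Kyat3 was at −0.39 ± 0.18 and Kyat1 at 0.34 ± 0.17, both kynurenine aminotransferases (adjusted p = 0.282 and 0.309). Afmid, which makes kynurenine from the product of Ido1, was at 0.18 ± 0.18, Ahr, a receptor for kynurenine, at 0.08 ± 0.09, and Wars, the tryptophan tRNA synthetase that IFN-γ induces, at −0.11 ± 0.16. Ido2, Tdo2, Kynu, Haao and Qprt had group means under 1 CPM, and Aadat had no count.

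Macrophage, T and NK cell markers were high in the same control library, and B cell markers were not the highest there. The 12 macrophage and dendritic cell markers summed to 353 CPM in EPR fl/fl 6, to 130 to 239 CPM in the other controls and to 121 to 235 CPM in EPR cKO, and EPR fl/fl 6 was highest for 9 of the 12. The 13 T and NK cell markers summed to 177 CPM in EPR fl/fl 6. In the other controls they summed to 25.7 to 127 CPM and in EPR cKO to 40.9 to 170 CPM. Within EPR cKO the highest macrophage and dendritic cell sum was that of EPR cKO 1. The highest T and NK cell sum there was that of EPR cKO 6. Log2 levels of the 45 genes lay at a median of −0.59 from their means over 12 libraries in EPR cKO 1, and of 0.85 in EPR cKO 6. Ptprc was at 75.2 CPM in EPR fl/fl 6 and at 28.1 to 66.7 CPM in the other 11 libraries. The 7 B cell markers summed to 297 CPM in EPR fl/fl 6, to 126 to 314 CPM over all controls and to 129 to 361 CPM in EPR cKO, and EPR fl/fl 6 was highest for 0 of the 7. Of the 6 plasmacytoid dendritic cell markers it was highest for 1, Bst2. Siglech and Cox6a2, markers of plasmacytoid dendritic cells, were under 1 CPM in every library. Bst2 is both a marker of those cells and one of the 45 genes. None of the macrophage, T and NK cell, B cell or plasmacytoid markers was called. Of 10 goblet cell markers 7 were called lower, beside 1.57% of all genes. The part of these cell types in the interferon gene levels was not tested.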

How the data were processed

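Total RNA of the proximal colon of 12 mice was sequenced as stranded, ribosomal RNA-depleted paired-end libraries. The authors trimmed the reads, aligned them with STAR 2.5.3a to mm10 (GRCm38) and counted them per Ensembl gene with featureCounts in R 3.5.1, and the deposited values are raw counts with no normalization. The strand setting and the handling of reads with several alignments are not given in the sources used here, so near-copies and antisense pairs were described from 50-base stretches shared between GENCODE transcripts.

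Groups came from the sample titles. Counts were tested with edgeR 4.0.16 (TMM scaling, quasi-likelihood F test, two-sided, Benjamini-Hochberg over all 15952 genes with at least 1 CPM in at least 4 libraries), after the level filter in the methods of the study, and the SE was taken as fold change over root F. The procedure was tested on simulated counts with the same dispersion (spread beyond counting noise) for every gene. That setting holds no genes that vary together, so it does not bear on the spread of the 45. DESeq2 1.42.0, limma 3.58.1 (voom), other scalings and filters, a replicate block, a composition covariate and leaving out each library were alternatives. Log2 CPM used a prior count of 2. Ratios were compared by exact permutation over samples. The 45 genes, their roles and the other lists were chosen with earlier results of these data known. Levels are given for Ido1, for the 3 genes with the smallest p in each direction and for the gene highest per exon length in each role, and Isg15, Ifi44, Irf1, Usp18 and Cxcl9 were added after their values were seen. The labels do not say whether replicates shared litters or cages, and totals of 13093904 to 33211041 counts limit precision. No 2 libraries of a group agreed within sampling noise (chi-square per gene of 20.9 or more in 30 pairs). Other interferon genes outside the lists were not analysed here.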

Additional observations from a re-analysis of the deposited data

Results flagged for a closer look

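Dixon's criterion at 95%, which asks whether the highest or lowest of 6 libraries stands apart from the rest of its group, was applied to 104 sets of 6 values (the 45 genes, Ifnar2, 4 ligands and the 2 Ido1 ratios, in each genotype). It was met by 28 sets. The nominal rate of 1 in 20, or 5.2 sets, assumes normally distributed values. Genes and ligands were entered as CPM or counts without a log transform, where a high library stands apart more easily. The 28 sets can therefore not be read against 5.2. In all 28 the library was EPR fl/fl 6, as the highest of its group. The values share that library and the genes vary together, so the 28 are not separate events.

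Among the regulators and sensors, EPR fl/fl 6 stood apart with 621 CPM of Irf7 (next control 261), 89.9 of Irf9, 22.4 of Socs1, 85.5 of Usp18, 101 of Ddx58 and 64.6 of Dhx58. Among the IFIT, ISG and IFI genes it had 270 CPM of Ifit1, 359 of Ifit2, 103 of Ifit3, 29.9 of Ifit3b, 147 of Isg15, 101 of Ifi44 and 76.3 of Ifi35. In the Oas and Mx families it had 190 CPM of Oas1a, 78.4 of Oas2, 298 of Oas3, 394 of Oasl2, 24.6 of Mx1 and 27.6 of Mx2. The remaining effectors were Rsad2 at 140.0 CPM, Xaf1 at 49.4, Bst2 at 90.1, Trim30a at 148 and Ly6e at 370.2. Gbp4 was at 29.2 CPM and Cxcl10 at 26.6, where the next control had 13.3 and 5.48. Of the ligands, EPR fl/fl 6 had 29 counts of Ifnl2 and 23 of Ifnl3, and no other control had more than 1. Ido1 did not meet the criterion in either genotype.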

How the results depend on the processing

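Ido1 kept a negative log2 fold change under every alternative run. It passed an adjusted p of 0.05 with DESeq2 (−1.725, adjusted p = 0.0385) and without EPR cKO 1 (0.0483), and not under the others, where p reached 0.207. Leaving out 1 library gave −1.93 to −1.25. The ratio of Ido1 to Ptprc missed the threshold with EPR fl/fl 6 and EPR cKO 1 both left out (−1.11, exact permutation p = 0.0635, an alternative chosen after seeing the data). Genes of the 45 lower at an adjusted p numbered 0, and 1 with DESeq2 (2.97% of all genes). With 1 library left out they numbered 0 to 1, the 1 without EPR cKO 1 (14.4%). At an unadjusted p the 2 lower genes (7.12% of all genes) became 4 with no low-count filter (5.76% of all genes). They became 3 with DESeq2 (7.87%) or the replicate block (9.16%), and 1 with limma-voom (11.3%) or quality weights (19.3%). With both libraries left out the count lower was 1 (19.9%), and the count higher became 2 (18.1%). With 1 library left out the count lower was 1 to 4, beside 5.84% to 20.7% of all genes. The 4 came without EPR fl/fl 3 (6.02%). The 1 receptor, sensing, target or kynurenine gene called lower (1.57% of all genes) became 0 with no filter, the replicate block or the composition covariate. The count became 2 with quality weights (11.9% of all genes called lower) or with both left out (13.4%). With 1 library left out it became 0 to 3, the 3 without EPR cKO 1 (14.4%). Those called higher, 0 in the main setting, became 1 with DESeq2 (2.77% of all genes called higher), 3 with quality weights (8.60%), 5 with both left out (9.38%) and 0 to 4 with 1 left out, the 4 without EPR cKO 1 (7.44%). The cause was not tested.

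Changes of sign concerned genes with fold changes near 0 or held by EPR fl/fl 6. The composition covariate gave −0.087 for Irf9 and −0.21 for Oas1a. limma-voom gave 0.0079 for Irf7 and 0.12 for Cxcl10, and with quality weights 0.094 for Irf7, 0.021 for Ifih1, 0.092 for Parp9, 0.10 for Irgm1 and 0.35 for Cxcl10. With both libraries left out the values were 0.37 for Irf7, 0.19 for Ifih1, 0.33 for Parp9, 0.31 for Irgm1 and 0.57 for Cxcl10. With 1 library left out, Irf9 ran from −0.078 to 0.25, Oas1a from −0.16 to 0.57, Oas3 from −0.20 to 0.69, Irf7 from −0.24 to 0.32, Ifih1 from −0.24 to 0.12, Parp9 from −0.21 to 0.25, Irgm1 from −0.43 to 0.18 and Cxcl10 from −1.19 to 0.39.

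Deviations from the group means correlated at −0.24 to 0.34 between libraries of equal replicate number. Among the EPR cKO libraries, EPR fl/fl 6 correlated best with number 6 (0.25) and EPR fl/fl 1 with number 1 (0.097). The other controls correlated best with a different number. Whether equal numbers shared a litter or cage was not tested. With the number as a replicate block, Irf7 was at 0.0016, Ido1 at −1.60 (adjusted p = 0.0842), the Ifnar2 call was lost (0.0699) and 178 genes were called lower and 67 higher, where 251 and 141 were called without it. DESeq2 called 473 lower and 440 higher. Without EPR cKO 1, 2273 were lower and 1178 higher. Total-count scaling called 247 lower and 39 higher. With sample quality weights, 1891 were lower and 1372 higher, and with both libraries left out 2102 and 1475.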
